A study of Mus musculus with 6 samples.

Results

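The 7 genes described here serve nitric oxide (NO) synthesis from arginine, the supply of that amino acid and the polyamine route. They are Nos2, the transporters Slc7a1 and Slc7a2, the recycling enzymes Ass1 and Asl, the cofactor enzyme Gch1, and Odc1. They were selected by gene symbol from 46603 gene identifiers in the count files, from a list drawn up with earlier results of these data known, and all 7 passed the filter on low counts that left 15226 genes for testing. The libraries came from enteric glial cells (EGCs), which accompany the neurons of the gut, cultured by way of neurospheres from whole intestines of E14.5 C57BL/6J mouse embryos. The study profiled these cells in its work on how EGCs act on monocytes and macrophages (Mφs). There were 3 control libraries, labelled as having no treatment, and 3 libraries from cells given 100 ng/ml lipopolysaccharide (LPS, an outer membrane component of Gram-negative bacteria) for 12 h. No allele or transgene was involved, and both groups shared the strain, embryonic stage and culture procedure. The labels did not say whether replicates were separate cultures or litters, so p-values measure the spread between these libraries, which may be technical.

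Nitric oxide synthases make NO and citrulline from arginine with the help of tetrahydrobiopterin (BH4). The inducible enzyme encoded by Nos2 is transcribed in many cell types after bacterial products or cytokines and needs no calcium signal to work, whereas the enzymes of Nos1 and Nos3 are calcium dependent. Ornithine decarboxylase, encoded by Odc1, turns ornithine into the polyamine putrescine. In the gut wall, NO from Nos1-expressing enteric neurons relaxes smooth muscle through soluble guanylate cyclase and cyclic GMP (cGMP), and Nos2 is known from inflamed muscularis and from activated Mφs.

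Total counts ranged from 18775316 to 23664312 per library. Values are CPM (counts divided by the library size in units of 1e6) on library sizes corrected with trimmed mean of M-values factors of 0.918 to 1.08, and a gene with at most 3 counts was taken as being at the floor, which was 0.124 to 0.167 CPM. All 8 glial markers were above the floor in all 6 libraries, with a summed 372.9 to 539.6 CPM in control and 401.1 to 414.8 CPM in LPS. Of these markers Fabp7 rose in LPS (log2 fold change 1.29, edgeR adjusted p = 0.0122), S100b (-1.91, 0.0238) and Cdh19 (-0.66, 0.0457) fell, and Sox10 lay at 73.8 to 100.7 CPM in control and 76.0 to 78.2 CPM in LPS. The cultures were not purely glial in their RNA. The 6 mesenchymal markers summed to 15150 to 15720 CPM in control and 14780 to 15340 CPM in LPS, and Pdgfra (0.50, edgeR adjusted p = 0.0114) and Dcn (0.90, 0.0118) of them rose. The other 4 had negative fold changes and were not called, though Lum (-0.73, edgeR adjusted p = 0.0775) was called lower once a term for the replicate number was added (0.00581). Of 12 Mφ markers, 11 were above the floor in all 6 libraries and none was at 0. Their summed level was 4107, 5321 and 12620 CPM in control replicates 1, 2 and 3, and 4044, 5240 and 20200 CPM in LPS replicates 1, 2 and 3. Lyz2 alone gave 2385 to 11480 CPM of this sum, and single markers moved in opposite directions. Adgre1 was called higher in LPS (log2 fold change 2.78, edgeR adjusted p = 0.0452) and no marker of the list lower. When the fit also held a term for the replicate number (the replicate block), 4 were higher (Adgre1, Ptprc, Fcgr1 and Aif1) and 3 lower (Cd68, Mrc1 and Cx3cr1). By the sum, replicate 3 stood apart in both groups, and it also had the lowest summed level of 6 neuronal markers, 243.9 and 258.9 CPM against 380.6 to 412.4 CPM in the other 4 libraries. All 8 smooth muscle markers fell in LPS, from a summed 2449 to 2691 CPM to 688.8 to 963.5 CPM. The 5 epithelial markers summed to 1.46 to 3.06 CPM.

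RefSeq promoter windows (GRCm38.p6) were matched by symbol for 4 of the 7 members, namely Ass1, Slc7a1, Gch1 and Odc1. Nos2, Asl and Slc7a2 had no entry. The 250 bases before the start of Gch1, which rose in every LPS library, and of the longer Slc7a1 gene model, which did not, are shown 5′ to 3′ on the gene's strand. They are given as an example of a called and of an uncalled member, with the sequence in which the motifs were searched. Capitals mark matches to the 6 motifs searched.
Gch1, chr14:47189414-47189663, minus strand: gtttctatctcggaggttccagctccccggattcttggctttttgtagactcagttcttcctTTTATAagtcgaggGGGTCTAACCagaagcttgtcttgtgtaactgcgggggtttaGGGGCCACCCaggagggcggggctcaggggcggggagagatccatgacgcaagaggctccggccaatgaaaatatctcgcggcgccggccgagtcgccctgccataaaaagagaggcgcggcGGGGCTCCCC
Slc7a1, chr5:148399905-148400154, minus strand: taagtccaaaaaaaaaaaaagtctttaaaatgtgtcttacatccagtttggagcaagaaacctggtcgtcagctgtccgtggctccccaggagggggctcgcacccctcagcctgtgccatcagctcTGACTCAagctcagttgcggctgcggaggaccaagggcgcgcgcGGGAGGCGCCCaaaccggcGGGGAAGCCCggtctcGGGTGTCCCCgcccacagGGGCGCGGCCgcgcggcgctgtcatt

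All motifs were searched on both strands. A loose form of the NF-κB site (GGG and CC with 5 free bases between) matched in both windows, but 45.8% of all 32851 RefSeq windows of this length held them. The TATA box letters TATAAA, held by 12.4% of windows, matched on the opposite strand of Gch1, and TGANTCA (AP-1, 6.75%) matched in Slc7a1. TTCNNNGAA (STAT, 7.02%), ATGCAAAT (octamer, 1.6%) and CACGTG (E-box, 6.02%) matched in neither of these windows. A second RefSeq window of Slc7a1, 250 bases before the start of a shorter gene model, held a STAT match and TATAAA on the gene's strand and no NF-κB match. Some NF-κB matches in both windows overlap a match on the other strand. These matches describe letters only and were not tested for binding.

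LPS and control libraries were next compared gene by gene with the quasi-likelihood test of edgeR, adjusted over all 15226 genes and called at an adjusted p under 0.05. Nos2 (ENSMUSG00000020826, chr11:78920787-78960254, plus strand, protein coding), the inducible NO synthase, rose from the floor in control to a level far above it in LPS. It had 1, 1 and 0 counts in control replicates 1, 2 and 3, which is 0.0424, 0.0443 and 0 CPM and at the floor in each. In LPS replicates 1, 2 and 3 it had 15601, 17254 and 1033 counts, or 771.0, 961.5 and 54.1 CPM. The groups did not overlap, yet LPS replicate 3 was 14.3-fold below LPS replicate 1 and 17.8-fold below LPS replicate 2. The summed counts of the LPS group, scaled to library size, were 20810 times those of the control group, with a 95% interval of 5760 to 171800 that covers counting error only and rests on 2 control counts. The call (edgeR adjusted p = 0.00723, n = 3 per group) was lost without control replicate 2, at an adjusted p of 0.0544. By mean CPM per kb of exon in LPS, Nos2 lay at percentile 98.0 of 15176 genes. That mean rests mostly on LPS replicates 1 and 2 (174.7 and 217.9 CPM per kb), as LPS replicate 3 had 12.3 CPM per kb. LPS replicate 3, the library with the least Nos2 of its group, was the one with the most Mφ marker RNA, and the part of cell composition in this was not tested. In bulk RNA, fewer cells of a type and less RNA per cell cannot be told apart.

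**Figure D1:**
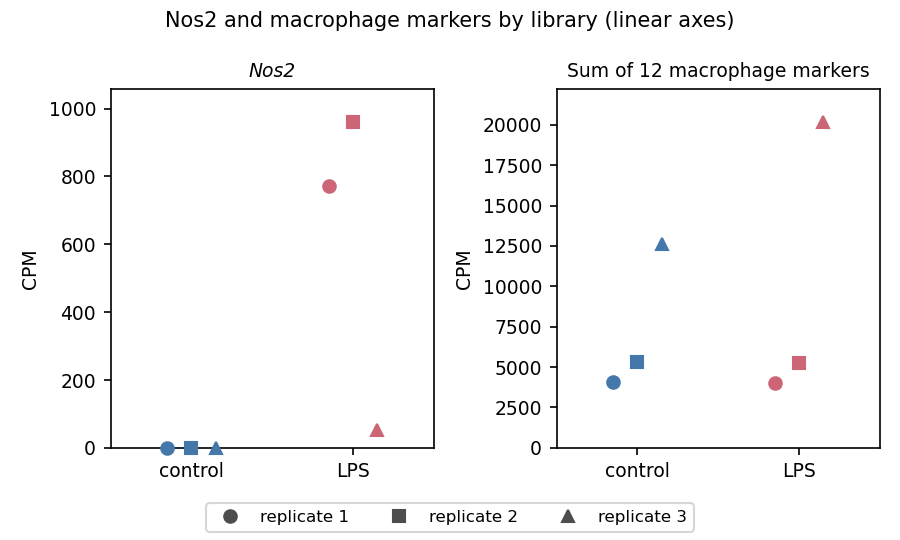
CPM of Nos2 and of 12 summed Mφ markers in each library on linear axes, with symbols for replicate numbers. LPS replicate 3 has the least Nos2 of its group, 54.1 CPM, together with the highest marker sum, 20200 CPM.

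**Figure D2:**
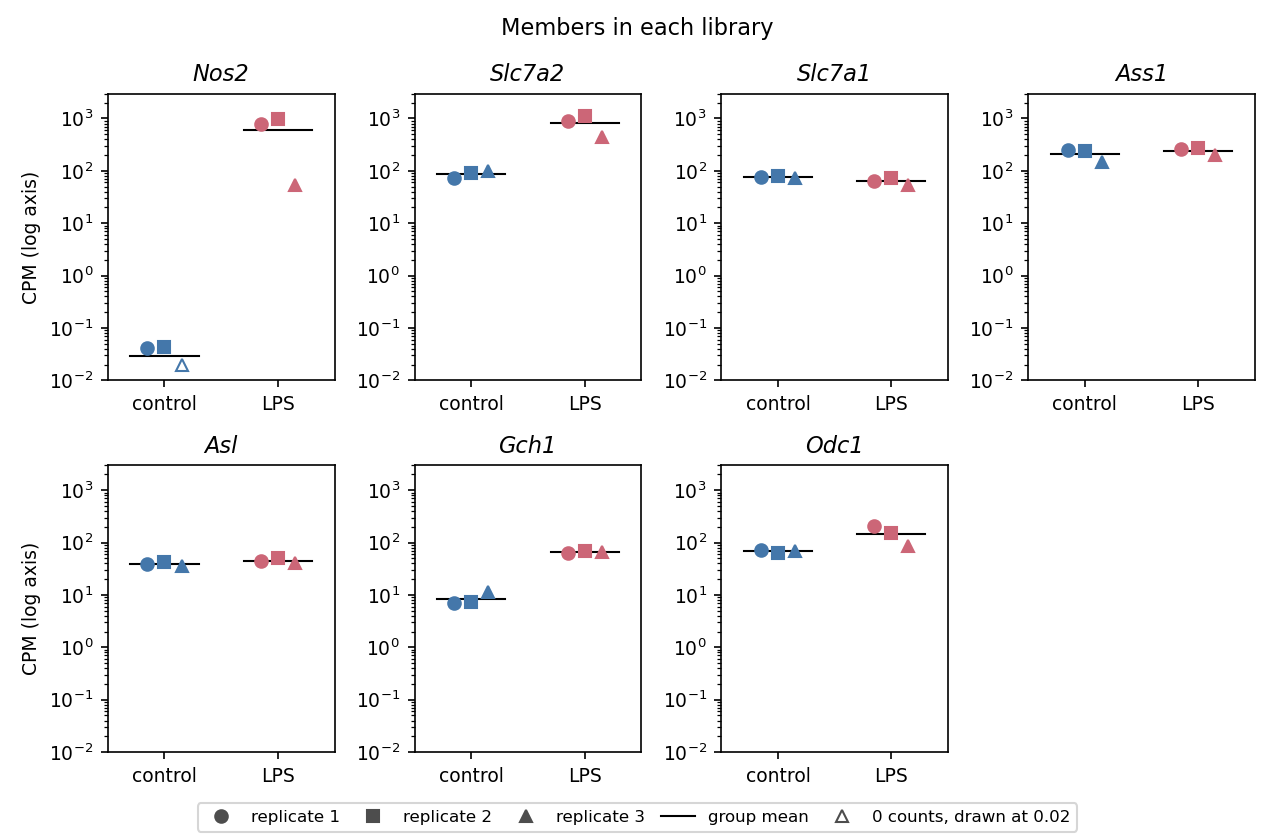
Level of the 7 members in each library in CPM on a log axis, for 3 control and 3 LPS libraries, with symbols for replicate numbers and a line at the group mean. Nos2, Slc7a2, Gch1 and Odc1 lie above all controls in all 3 LPS libraries.

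Slc7a2 (ENSMUSG00000031596, chr8:40862396-40922308, plus strand), a cationic amino acid transporter that brings arginine into cells, rose strongly, whereas its relative Slc7a1 did not. Slc7a2 measured 73.2, 92.2 and 98.8 CPM in control replicates 1, 2 and 3 and 904.5, 1127 and 443.7 CPM in LPS replicates 1, 2 and 3. Every LPS library was above every control library, with LPS replicate 3 the lowest of its group. The log2 fold change was 3.23 (SE 0.372, edgeR adjusted p = 0.00526, n = 3 per group), and the call held in all 14 alternative fits, with adjusted p-values up to 0.0435. Paired by replicate number, the rise was 12.4-fold, 12.2-fold and 4.49-fold. Slc7a1 (ENSMUSG00000041313, chr5:148327410-148399904, minus strand), the widely expressed transporter of the same family, measured 75.3, 81.3 and 73.0 CPM in control and 65.4, 72.7 and 54.9 CPM in LPS. The groups did not overlap, LPS being lower, but the difference (log2 fold change -0.25, SE 0.118) was not called, with an edgeR adjusted p of 0.208. An antisense gene model, Gm26584, overlaps 6.95% of the Slc7a2 exon bases and had at most 0.247 CPM.

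Ass1 (ENSMUSG00000076441, chr2:31470207-31520672, plus strand) and Asl (ENSMUSG00000025533, chr5:130011258-130029247, minus strand) rebuild arginine from the citrulline that NO synthases release. Neither was called. Ass1 measured 253.2, 237.0 and 145.9 CPM in control replicates 1, 2 and 3 and 256.6, 269.9 and 197.5 CPM in LPS, so the groups overlapped and replicate 3 was lowest in both. Its log2 fold change was 0.19 (SE 0.237, edgeR adjusted p = 0.64), and without control replicate 3 it was -0.0064. Per kb of exon, Ass1 had the highest mean of the 7 members at rest, at percentile 97.3 of all genes in control and 97.1 in LPS. Asl measured 39.5, 42.3 and 36.5 CPM in control and 44.6, 50.9 and 40.2 CPM in LPS, with overlapping groups and a log2 fold change of 0.20 (SE 0.114, edgeR adjusted p = 0.29). Of the 31-base words of Ass1, 43.1% occur in other genes, all of these in Gm5424, which was counted at 3.61 to 6.08 CPM, so the Ass1 level is uncertain to the extent that reads were assigned between them.

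Gch1 (ENSMUSG00000037580, chr14:47153895-47189413, minus strand) encodes GTP cyclohydrolase, the first and rate-limiting enzyme of BH4 synthesis. Control replicates 1, 2 and 3 had 6.87, 7.30 and 11.4 CPM, and LPS replicates 1, 2 and 3 had 62.5, 69.3 and 66.6 CPM. Unlike Nos2 and Slc7a2, Gch1 was not lower in LPS replicate 3 than in both other LPS libraries, while control replicate 3 was the highest control. The log2 fold change was 2.95 (SE 0.218, edgeR adjusted p = 0.00127), and it stayed between 2.81 and 3.24 and called in all 14 alternative fits, with adjusted p-values up to 0.0144. Of the 6 other BH4 genes listed, 5 passed the filter, 1 was called lower and 0 higher (6.71% and 9.09% of all genes). At an unadjusted p under 0.05, 3 of the 5 were lower and 0 higher (16.0% and 16.1%), and DESeq2 called 2 lower and 0 higher (9.5% and 12.0%). Qdpr, which regenerates BH4 from its oxidised form, fell from 51.2, 53.7 and 54.0 CPM to 39.8, 41.4 and 45.3 CPM (log2 fold change -0.33, SE 0.0786, edgeR adjusted p = 0.0425), a call that 6 of 14 alternatives lost, with adjusted p-values up to 0.169.

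In the edgeR fit with TMM factors and all libraries, no other BH4 gene was called. Pts, the enzyme acting after Gch1, measured 15.2 to 16.4 CPM in control and 9.98 to 14.2 CPM in LPS (edgeR adjusted p = 0.147, called lower in 3 of 14 alternatives, at 0.0181 to 0.0446), and Spr, which completes the synthesis, measured 25.5 to 30.6 and 24.1 to 33.6 CPM. Pcbd2 was at 10.0 to 10.3 CPM in control and 7.12 to 8.01 CPM in LPS (edgeR adjusted p = 0.0551, called lower in 4 of 14 alternatives, at 0.0221 to 0.0303). Pcbd1 lay at 0.419 to 1.86 CPM over both groups. Gchfr, a feedback inhibitor of GTP cyclohydrolase, had 1 to 12 counts per library and was not tested.

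Odc1 (ENSMUSG00000011179, chr12:17544794-17551505, plus strand), the first enzyme of polyamine synthesis, measured 72.5, 62.8 and 67.5 CPM in control replicates 1, 2 and 3 and 207.3, 153.9 and 84.4 CPM in LPS replicates 1, 2 and 3. All LPS libraries were above all controls, LPS replicate 3 only slightly. The log2 fold change of 1.14 (SE 0.316) missed the threshold, with an edgeR adjusted p of 0.0631. It was called with the replicate block (1.05, edgeR adjusted p = 0.0405), by DESeq2 (1.15, adjusted p = 0.00623), without LPS replicate 3 (1.42, edgeR adjusted p = 0.00353) and without both replicate 3 libraries (1.44, edgeR adjusted p = 0.000471). Over all 14 alternatives the adjusted p ran from 0.000471 to 0.199. Of its 31-base words, 31.3% occur in other genes, 19.4% in Gm7993, which had 0.346 to 1.88 CPM.

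As a group, 3 of the 7 members were called higher in LPS (Nos2, Slc7a2 and Gch1), where 9.09% of all tested genes were. None was called lower, where 6.71% of all genes were. At an unadjusted p under 0.05, edgeR gave 4 higher and 0 lower (16.1% and 16.0% of all genes), and DESeq2 called 4 higher and 0 lower (12.0% and 9.5% of all genes). With the replicate block, 4 members were higher and 0 lower (15.4% and 14.9% of all genes). Without control replicate 2, only Slc7a2 and Gch1 were called (2.44% of all genes higher and 0.72% lower). Without both replicate 3 libraries, 4 were higher and 0 lower (22.6% and 20.4% of all genes). In 4 members all LPS libraries were above all controls, which 19.3% of tested genes also were, and in 1, Slc7a1, all were below, as in 19.4% of genes. The median log2 fold change was 1.14 over the members and -0.02 over all genes tested. The members were chosen with earlier results of these data known, and Nos2 passed the filter through its LPS counts alone. The shares of all genes are therefore set beside them as a description and do not test the members as a group.

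**Figure D3:**
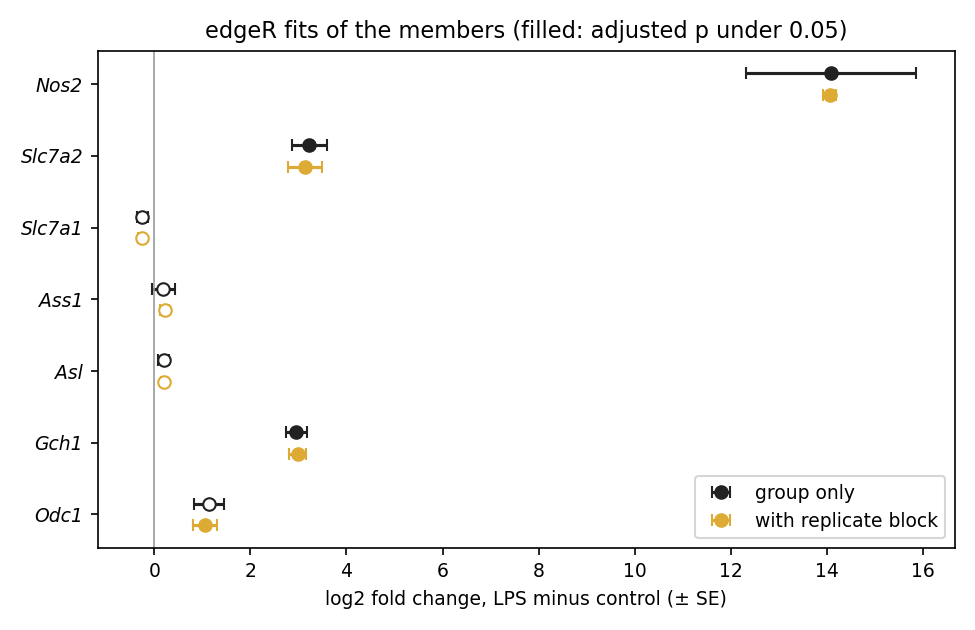
Log2 fold change of each member, LPS minus control, with its SE, in the edgeR fit with group only and in the fit with the replicate number as a block, filled where the adjusted p is under 0.05. Nos2, Slc7a2 and Gch1 are called in both fits, Odc1 with the block only. The Nos2 value rests on 2 control counts.

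The order of the members by level, in CPM per kb of exon, changed between the groups. At rest Ass1 led at 87.8 ± 24.0 CPM per kb (SD, n = 3), followed by Odc1 at 19.9 ± 1.42 CPM per kb. Slc7a2 (9.64 ± 1.46 CPM per kb) and Asl (8.16 ± 0.608 CPM per kb) came next with overlapping ranges. Slc7a1 (6.64 ± 0.374 CPM per kb), Gch1 (1.36 ± 0.401 CPM per kb) and Nos2 (0.00655 CPM per kb) followed, each apart from the one before. In LPS libraries Nos2 had the highest mean, 135.0 ± 108.0 CPM per kb, but its range of 12.3 to 218.0 spanned those of Ass1 (100.0 ± 16.0 CPM per kb), Slc7a2 (90.3 ± 38.1 CPM per kb) and Odc1 (43.6 ± 18.1 CPM per kb), and each of these neighbours overlapped the next. Gch1 (10.6 ± 0.548 CPM per kb) lay apart below Odc1. It overlapped Asl (9.36 ± 1.12 CPM per kb), and Slc7a1 (5.58 ± 0.779 CPM per kb) lay apart below both.

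The ratio of both transporters within a library does not depend on scaling and was compared as log2 of counts per kb, with 0.5 counts added. The exact permutation test over 20 regroupings, two-sided, cannot give a p below 0.1 with 3 libraries against 3. Slc7a2 to Slc7a1 was 0.30, 0.52 and 0.77 in control replicates 1, 2 and 3 but 4.13, 4.29 and 3.35 with LPS. The difference was 3.39 (exact p = 0.1, 0.15 adjusted over 3 ratios computed in the same way), in the same direction in all 3 pairs of equal number. In other words, Slc7a2 made up 55.1%, 58.9% and 63.1% of the counts per kb of this transporter pair at rest and 94.6%, 95.1% and 91.1% with LPS.

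**Figure D4:**
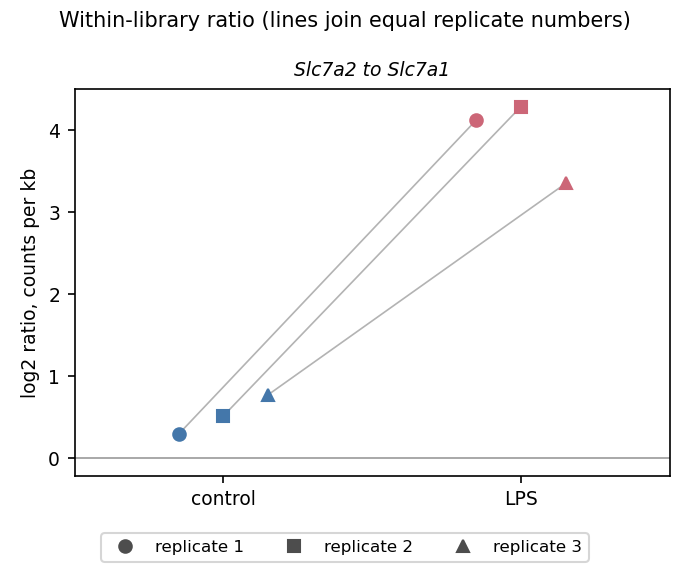
Log2 ratio of counts per kb within each library for Slc7a2 to Slc7a1, with lines joining control and LPS libraries of equal replicate number. The ratio rises in all 3 pairs, by 2.58 to 3.83.

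Beyond the members, 59 other genes of arginine, NO, BH4 and polyamine metabolism were listed, of which 52 were tested. LPS raised 3 of them and lowered 5 (9.09% and 6.71% of all genes), and their median log2 fold change was -0.10. The calls depended on which library was left out, over all genes as in the list. Without control replicate 3 the list had 3 higher and 6 lower (1174 and 1039 of 15605 genes), and without LPS replicate 3 it had 4 and 8 (12.6% and 9.13% of all genes). EdgeR called no gene of the list in either direction without control replicate 1 (3.03% of all genes higher and 1.25% lower), control replicate 2 (2.44% and 0.72%) or LPS replicate 2 (3.36% and 1.04%). A single gene of the list, raised by LPS, passed when LPS replicate 1 was dropped (3.98% of all genes higher and 1.44% lower). At an unadjusted p under 0.05 these 4 fits gave 3 to 4 higher and 8 to 10 lower, where 12.2% to 13.8% of all genes were higher and 10.5% to 12.3% lower. With the replicate block, 6 were higher and 11 lower (15.4% and 14.9% of all genes). Among the 7 groups of the list, the median furthest from 0 was that of the genes that act after NO is made.

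Of 8 genes for the NO receptor, cGMP signalling and NO removal, 3 fell and none rose (6.71% and 9.09% of all genes), with a median log2 fold change of -1.26. At an unadjusted p under 0.05 edgeR gave 4 lower and 0 higher (16.0% and 16.1% of all genes), and DESeq2 called 4 lower and 0 higher (9.5% and 12.0%). With the block 6 were lower and 0 higher (14.9% and 15.4%), the 3 below with Gucy1b1, Pde5a and Cygb. Gucy1a1, an alpha subunit of soluble guanylate cyclase, fell from 40.7, 40.8 and 25.8 CPM in control replicates 1, 2 and 3 to 7.61, 7.64 and 12.9 CPM in LPS (log2 fold change -1.93, SE 0.293, edgeR adjusted p = 0.0123). Gucy1a2, the other alpha subunit, fell from 12.0, 9.56 and 5.46 CPM to 3.86, 1.73 and 2.51 CPM (log2 fold change -1.73, SE 0.41, edgeR adjusted p = 0.0413). Prkg1, the cGMP-dependent kinase of smooth muscle, fell from 54.0, 55.3 and 30.5 CPM to 18.9, 18.5 and 14.8 CPM (log2 fold change -1.42, SE 0.255, edgeR adjusted p = 0.0197). In all 3 genes the LPS libraries lay below all controls, as they did in 19.4% of all tested genes. Control replicate 3 was the lowest control in each. Each call was lost without any 1 of control replicates 1 and 2 and LPS replicates 1 and 2, with edgeR adjusted p-values up to 0.141, and that of Gucy1a2 also without LPS replicate 3. The beta subunit gene Gucy1b1 was at 43.6 to 95.8 CPM in control and 30.6 to 40.4 CPM in LPS and missed the threshold (edgeR adjusted p = 0.0615), but was called in 5 of 14 alternatives, the block among them (0.0225). All 8 smooth muscle markers fell in the same libraries (Acta2 by 1.93 and Myl9 by 1.61 on the log2 scale), and their part in the fall of these NO receptor genes was not tested.

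Among the other NO synthases and their regulators, Nos1, the neuronal enzyme, was not called. It measured 174.8, 179.7 and 26.6 CPM in control replicates 1, 2 and 3 and 106.7, 151.4 and 37.6 CPM in LPS, low in replicate 3 of both groups as the neuronal markers were, with a log2 fold change of -0.37 (SE 0.795, edgeR adjusted p = 0.796). Nos3, the endothelial enzyme, had 2 to 5 counts per library and was not tested. Nosip, which encodes a protein that binds NO synthases, rose from 30.7, 33.0 and 32.4 CPM to 43.0, 47.0 and 49.1 CPM (log2 fold change 0.53, SE 0.0826, edgeR adjusted p = 0.013). In 3 of 14 alternatives this call was lost, with adjusted p-values up to 0.07. Ddah2, which breaks down an inhibitor of NO synthases, was called lower with the block (log2 fold change -0.46, edgeR adjusted p = 0.0138, against 0.224 without it).

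Of the 5 other arginine transport genes, 1 rose and 1 fell (9.09% and 6.71% of all genes). Slc7a6, a light chain that exchanges arginine for neutral amino acids, rose from 38.8, 36.2 and 40.7 CPM to 62.7, 65.9 and 52.8 CPM (log2 fold change 0.65, SE 0.107, edgeR adjusted p = 0.0157). Slc7a3, a further cationic amino acid transporter, fell from 4.53, 4.34 and 4.88 CPM to 2.57, 2.68 and 2.36 CPM (log2 fold change -0.85, SE 0.159, edgeR adjusted p = 0.022). It lies below the level set for naming genes and is named because its value was seen. With the replicate block 3 rose and 1 fell (15.4% and 14.9% of all genes), the added genes being Slc7a7 (log2 fold change 0.64, edgeR adjusted p = 0.04, against 0.166 without the block) and Slc3a2 (0.32, 0.0213 against 0.359). The calls of Slc7a6 and Slc7a3 were each lost in 4 of 14 alternatives, with adjusted p-values up to 0.0966.

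Of 18 polyamine genes other than Odc1, 17 were tested, 1 was called higher and 0 lower (9.09% and 6.71% of all genes). At an unadjusted p under 0.05 edgeR gave 1 higher and 2 lower (16.1% and 16.0%), and DESeq2 called 1 higher and 0 lower (12.0% and 9.5%). Eif5a, the translation factor that carries the spermidine-derived residue hypusine, rose from 387.3, 398.6 and 417.7 CPM to 507.8, 516.8 and 506.8 CPM (log2 fold change 0.35, SE 0.0724, edgeR adjusted p = 0.0296), a call lost in 7 of 14 alternatives with adjusted p-values up to 0.141. With the block, the spermine oxidase gene Smox was also called higher (0.37, edgeR adjusted p = 0.0275, against 0.242 without the block) and the polyamine oxidase gene Paox lower (-1.11, 0.0165 against 0.146). When both replicate 3 libraries were left out, the polyamine list had 4 higher and 1 lower (22.6% and 20.4% of all genes). Median log2 fold change of the polyamine list was 0.0085 with all libraries. Without the block and with all 6 libraries, edgeR called none of the 9 tested genes of ornithine, proline, creatine and agmatine metabolism (9.09% of all genes higher and 6.71% lower). At an unadjusted p under 0.05, 0 were higher and 3 lower (16.1% and 16.0%), and DESeq2 called 0 higher and 1 lower (12.0% and 9.5%). With the block 1 was lower and 0 higher (14.9% and 15.4% of all genes), Gamt of creatine synthesis (-1.27, edgeR adjusted p = 0.0391, against 0.118 without it). Without LPS replicate 3 there was 1 lower (12.6% of all genes higher and 9.13% lower), and without both replicate 3 libraries 4 lower and 0 higher (20.4% and 22.6%). Genes called with the block but not in the fit without it are named because their values were seen. Gatm, which makes the creatine precursor from arginine, was highest in replicate 3 of both groups, at 11.2, 16.7 and 37.8 CPM in control replicates 1, 2 and 3 and 3.71, 5.18 and 66.3 CPM in LPS. Gatm was singled out after its values were seen. Neither of the 2 tested mitochondrial urea cycle genes was called (9.09% of all genes higher and 6.71% lower). At an unadjusted p under 0.05, 1 was lower (16.0% of all genes), and DESeq2 called 1 lower (9.5% of all genes). Cps1, Otc and Nags did not pass the filter.

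**Figure D5:**
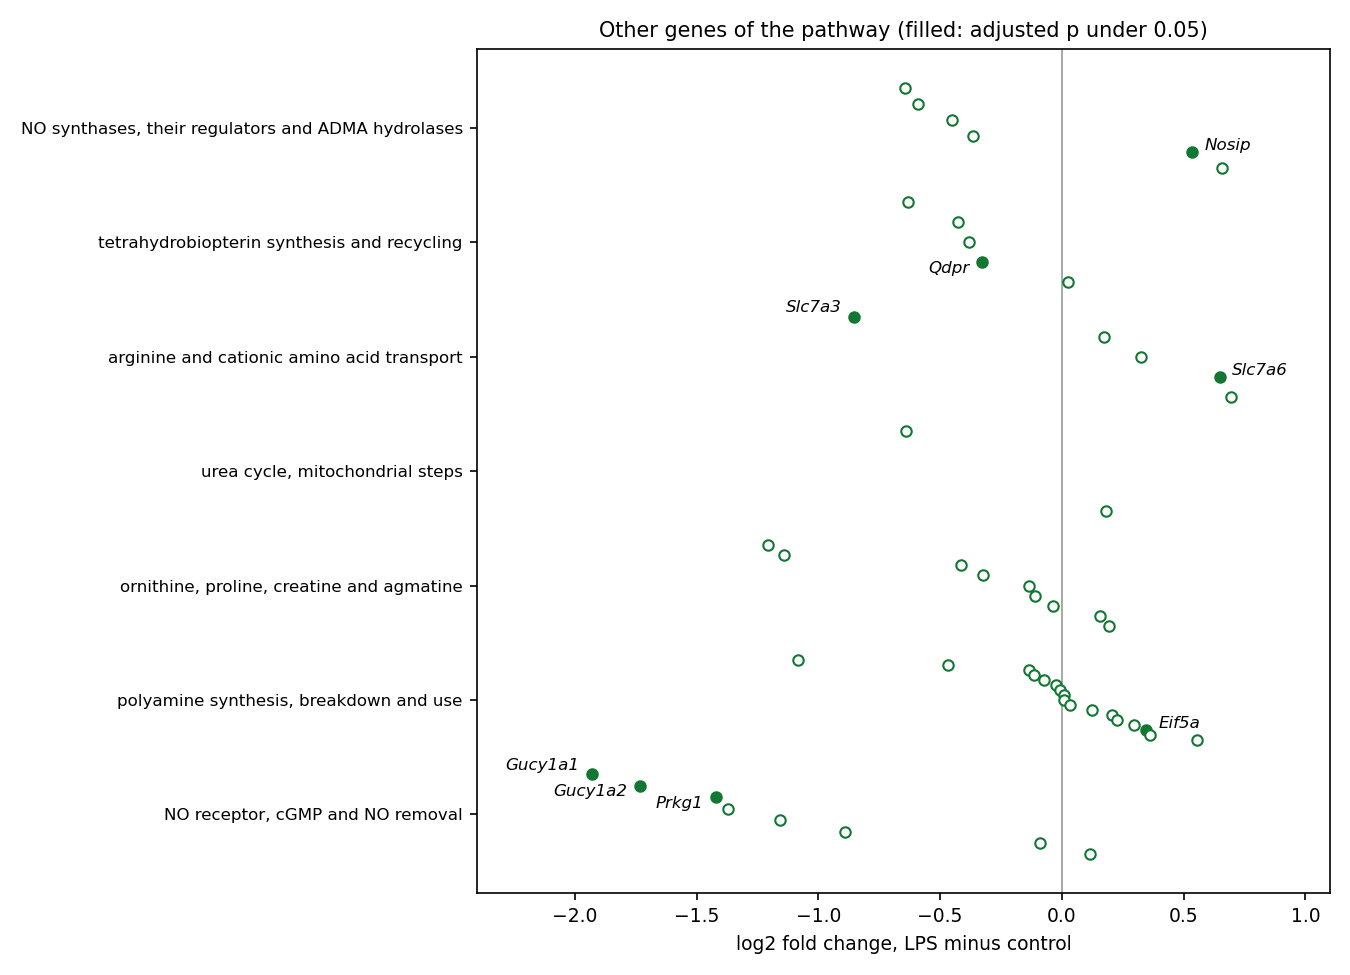
Log2 fold change, LPS minus control, of the 52 tested pathway genes other than the members, in 7 groups, filled where the edgeR adjusted p is under 0.05. The 3 largest falls among the filled genes, Gucy1a1 (-1.93), Gucy1a2 (-1.73) and Prkg1 (-1.42), are in the group for the NO receptor and cGMP.

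Finally, the genes closest in pattern to Nos2 were listed by Pearson correlation of log2 CPM over the 6 libraries, among 15225 other genes. These were Mmp13 (0.9996), Adamts7, Hif1a, Gbp10 and Surf4 (0.9991). Mmp13, a collagenase, measured 11.9, 10.9 and 8.80 CPM in control replicates 1, 2 and 3 and 645.5, 729.5 and 207.2 CPM in LPS, and Hif1a, a subunit of the hypoxia-inducible factor, measured 271.5 to 303.0 CPM in control and 975.5, 996.3 and 651.3 CPM in LPS. Both were lowest, among LPS libraries, in replicate 3, which follows from their selection by correlation with Nos2. In all, 1458 genes correlated with Nos2 above 0.9. The 6 points share groups and library composition, so this list is a description.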

How the data were processed

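Poly(A) RNA libraries from 3 control and 3 LPS-treated EGC cultures were analysed. The extract protocol names a stranded kit, the series text a kit without that word. Per the submitters' processing notes and the series text, the authors trimmed reads (cutadapt 1.15), removed contaminants (Bowtie2 2.3.3.1), aligned to GRCm38 (STAR 2.5.2b), filtered with SAMtools 1.5 and counted with featureCounts 1.5.3. The deposited values are raw counts per gene and library, not pooled. The strand setting and the handling of multiply aligned reads are not given in the sources used here. A table of the whole series repeats these counts and was not used.

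Genes were filtered with filterByExpr (minimum count 10, minimum total 15), scaled with TMM factors and tested with the quasi-likelihood F-test of edgeR 4.0.16 (R 4.3.3), two-sided, with no term besides group, and p-values were adjusted over 15226 genes by Benjamini-Hochberg. SE was derived from the log2 fold change and its F. The Nos2 count interval is exact at 95%. PCR copies cannot be recognised, so intervals and floors cover counting error only. Coordinates, exon lengths and shared 31-base words come from GENCODE M21, which held 46005 of 46603 identifiers.

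Members, gene lists and alternatives were chosen with earlier results of these data known. Of 9 genes selected by symbol 2, and of 60 listed pathway genes 1, are not reported here and enter no count of members or pathway genes. Named were all members, called pathway genes reaching 5 CPM in either group mean (at most 8 per direction), all other NO synthase and BH4 genes, and the 5 genes closest to Nos2 (log2 CPM with prior count 2). Alternatives were other scalings and filters, DESeq2 1.42.0, a replicate block, each library left out and both replicate 3 libraries left out. Replicate numbers were treated as pairs because deviations from group means of equal-numbered libraries correlated across genes (r = 0.513, 0.334 and 0.613). The pairing comes from the data, as the labels do not say what a number stands for. Control replicate 1 with LPS replicate 2 (0.419) exceeded pair 2, and control replicate 2 with LPS replicate 1 gave 0.323. Deviations cancel within a group, so a shared replicate 3 by itself makes r positive on average among replicates 1 and 2. These values therefore match replicate 3 but cannot decide the pairing of replicates 1 and 2, on which calls with the block also rest. On simulated counts for the LPS and control comparison (15068 genes, 200 changed), edgeR recovered 84.1% of genes changed 4-fold with 8% false calls. With the replicate block, edgeR recovered 69.6% of genes changed 4-fold with 6.9% false calls, on these counts simulated without a replicate effect. DESeq2, run on 15226 genes, gave 28.4% false calls.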

Additional observations from a re-analysis of the deposited data

How the results depend on the processing

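Of 7 members, 3 were called higher with all libraries. The count was 2 when every library had to reach 10 counts, which removes Nos2 from the test, and 2 to 4 when single libraries were left out, lowest without control replicate 2. No setting called a member lower. Of the pathway genes, 3 were higher and 5 lower with all libraries. Leaving out single libraries gave 0 to 4 higher and 0 to 8 lower, the replicate block 6 and 11, and both replicate 3 libraries left out, a setting added after the data were seen, 9 and 17. Library size alone gave 10 lower and DESeq2 9 lower. Of all genes, 1384 were higher and 1022 lower with all libraries. Leaving out single libraries gave 379 to 1964 higher and 112 to 1426 lower, lowest without control replicate 2 and most without LPS replicate 3. The replicate block gave 2343 and 2273, and leaving out both replicate 3 libraries gave 3498 and 3159. Upper-quartile factors gave 1589 lower, library size alone 2054 and DESeq2 1627. The cause of these moves was not tested. The replicate block changed the call of Odc1 and of no other member.

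Among the genes followed over the alternative fits, the sign of the log2 fold change turned for Nos1 (0.0214) without LPS replicate 3. It also turned for Ass1 (-0.0064) without control replicate 3. For Spr it turned with upper-quartile factors (-0.0740), library size alone (-0.127), without control replicate 3 (-0.0324) and without LPS replicate 1 (-0.0883). Gatm, compared only between the fits without and with the replicate block, turned from 0.19 to -0.69. Over the fits without 1 library, the value ran from -0.0064 to 0.345 for Ass1, from -0.829 to 0.0214 for Nos1 and from -0.0883 to 0.144 for Spr. None of these values was called. Over all genes the median was -0.12 under upper-quartile factors and -0.18 under library size alone, against -0.02, so values near 0 are relative to that shift. Where a library was left out, the spread of the smaller group was pooled with that of the other. The transporter ratio kept its sign in every setting tried. Low counts limit the values of Nos2 at rest (2 counts), Nos3 and Gchfr, among others.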
